A study of Arabidopsis thaliana with 4 samples.

Results

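The genes described here are 36 loci of the jasmonate pathway in Arabidopsis thaliana, chosen by locus name from 33414 loci named in the table. They encode enzymes that make and oxidise the hormone, its receptor, the JAZ repressors, the MYC and JAM transcription factors and 4 classical outputs. Transcripts were measured by RNA sequencing in 4 libraries of dark-grown (etiolated) seedlings, 2 treated with ethylene and 2 with air. After 3 days of darkness at 24 °C, seedlings received 4 hours of 10 ppm ethylene in hydrocarbon-free air, or that air alone. Every library, the air controls included, came from the srt1srt2 mutant in the Col background, in which a pair of sirtuin genes (NAD-dependent histone deacetylases) is mutated. The labels do not name the mutant alleles. No wild-type library was analysed here, so nothing below separates an effect of the mutations from the ethylene response. The name of the deposited table mentions srt1 alone, and the sample labels were followed. The comparison asks which of these transcripts differ after ethylene when the sirtuin genes are mutated.

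Jasmonate is made from alpha-linolenic acid. Lipoxygenases (LOX), allene oxide synthase (AOS) and allene oxide cyclases (AOC) act in the plastid, and OPR3 and the enzymes of beta-oxidation complete the synthesis in the peroxisome. The active form, jasmonoyl-isoleucine, joins the F-box protein COI1 to a JAZ repressor, the JAZ protein is degraded, and MYC transcription factors are released to activate genes such as VSP1 and VSP2. In etiolated Arabidopsis seedlings ethylene bends the apical hook, and jasmonate is known to oppose it through MYC2 and the ethylene factor EIN3.

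The authors' table holds 1 pooled FPKM value (fragments per kilobase of transcript, scaled to the number of mapped fragments) for each condition, so no spread between libraries can be shown and the depth is unknown. All FPKM values below are the authors' own. A gene was called when the authors' Cuffdiff test gave a q-value (Benjamini-Hochberg adjusted p) of 0.05 or less. Nothing in the labels ties the 2 libraries of a condition to separate plant batches, so the spread behind the test may be technical. Standard errors (SE) of log2 ratios are the ratio divided by the deposited test statistic. The deposited p is smaller than a standard normal curve would give for that statistic, by a median factor of 1.43 on the scale of the normal quantile. Calls were therefore also made from the statistic itself, read against a standard normal curve.

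In the authors' deposited table the ethylene response of these seedlings was present, with 4 of 6 listed ethylene genes called higher. The receptor gene ETR2 stood at 45.7 FPKM in ethylene and 7.90 in air, and the hook gene HLS1 at 41.1 FPKM in ethylene and 18.6 in air. EIN3 was at 97.6 FPKM in ethylene and 97.4 in air. The mutated genes were low, SRT1 at 3.23 FPKM in ethylene and 3.88 in air and SRT2 at 2.09 FPKM in ethylene and 1.92 in air. Without a wild-type library, whether the mutations lowered these transcripts was not tested. PORA, which marks dark-grown tissue, and its relative PORB were at 583 and 981 FPKM in ethylene and 397 and 701 FPKM in air. None of 4 floral organ genes had enough reads to be tested.

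The 3 tested genes of the 4 member outputs were lower in ethylene than in air, while the member synthesis enzymes, receptor and JAZ repressors were not called. The vegetative storage protein genes VSP2 and VSP1, the chlorophyllase gene CLH1, the transcription factor MYC2 and the repressor JAM2 fell, by between 1.46-fold and 3.71-fold. No member was called higher by Cuffdiff. The 36 genes stood in 35 entries of the table, because AOC1 and AOC2 share an entry, and 32 entries had enough reads to be tested. Among all 20786 tested entries that name a gene, 6.50% were called lower and 4.79% higher. Of the 32 tested member entries 5 (15.6%) were called lower and 0 higher. The members were chosen with earlier results of these data known, so their shares are a description only. At an unadjusted p under 0.05, 7 were lower and 4 higher, against a background of 11.3% lower and 9.17% higher. The outputs held 3 of the 5 calls. Without them 2 of 29 tested entries (6.90%) were lower, a share near the background. The median log2((ethylene FPKM + 1)/(air FPKM + 1)) over the 32 tested entries was -0.05, beside 0.0078 over all tested entries that name a gene. With the 3 untested entries it was -0.02, and over members at 1 FPKM or more it was -0.10. The seedlings were whole, so fewer cells of a type and less RNA per cell cannot be told apart.

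**Figure D1:**
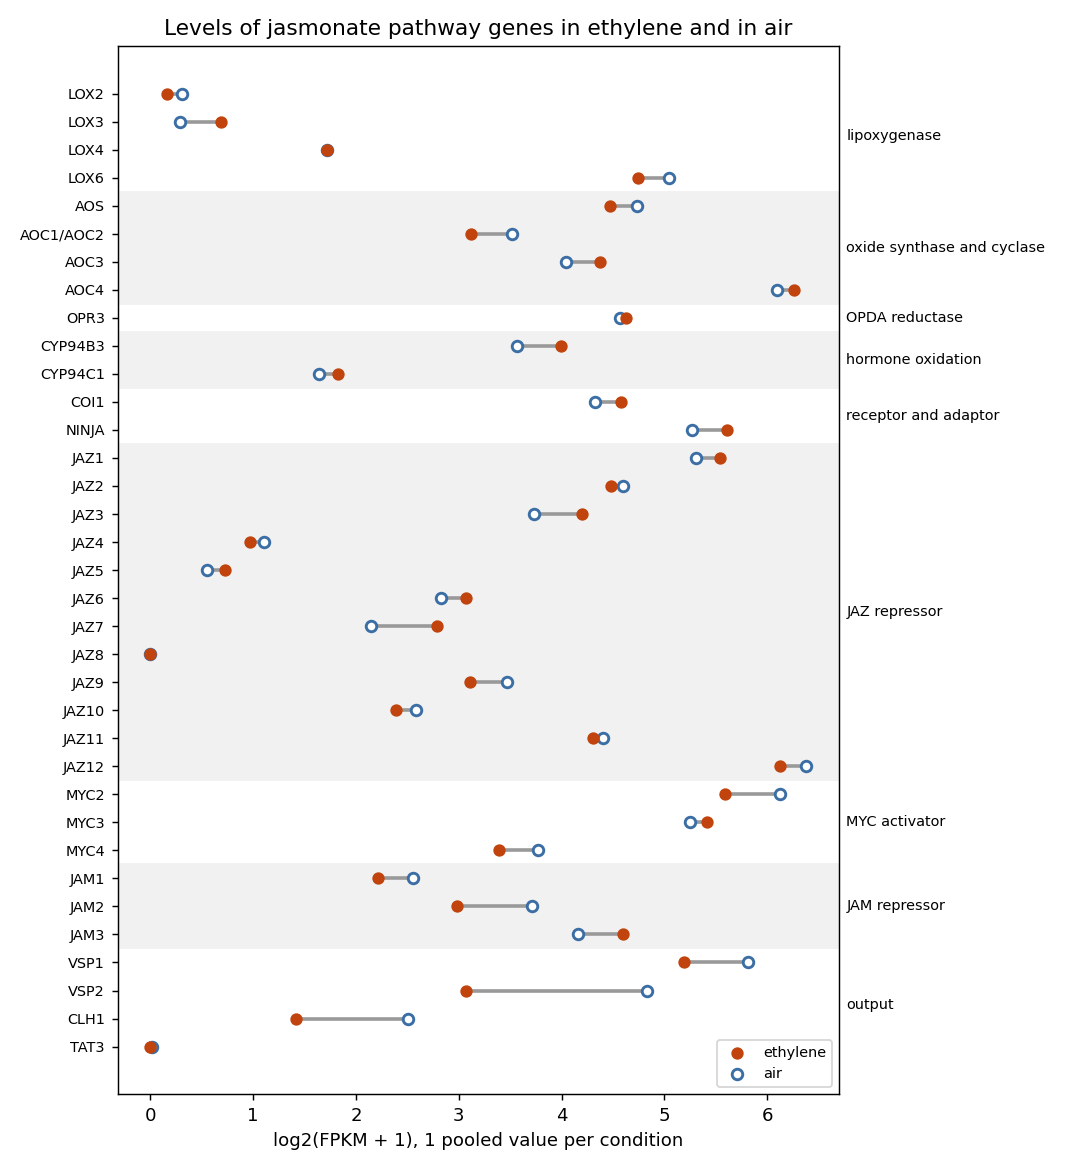
Levels of the 35 member entries on the log2(FPKM + 1) scale, 1 pooled value for ethylene (filled) and 1 for air (open), ordered by role. The filled point lies left of the open one for VSP1, VSP2 and CLH1, while most synthesis and JAZ genes have their points close together; LOX2, JAZ8 and TAT3 lie near 0.

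When the statistic was read against the normal curve, VSP2 alone, 1 of 32 tested member entries, was still called lower. Under that reading 3.24% of entries were called lower and 2.60% higher, so the members' share of lower calls was near the background. The Benjamini-Hochberg adjusted p from Cuffdiff's statistic was then 1.75e-08 for VSP2, 0.0675 for JAM2, 0.0968 for VSP1, 0.107 for CLH1 and 0.140 for MYC2. This adjustment ran over the tested entries with a numeric statistic, of which 20565 name a gene. The falls of the last 4 genes therefore depend on which deposited column is read.

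Of the 10 genes for hormone synthesis, none was called in either direction. Their 9 entries summed to 177 FPKM in ethylene and 176 FPKM in air. Among lipoxygenases, which add oxygen to the fatty acid, LOX6 was the most abundant of the 4 member genes, at 25.8 FPKM in ethylene and 32.0 in air. LOX1, a lipoxygenase outside the 36, was listed with other oxylipin enzymes and not with hormone synthesis. It was at 29.7 FPKM in ethylene and 28.9 in air. LOX4 was at 2.30 FPKM in both conditions. LOX3 was at 0.614 FPKM in ethylene and 0.218 in air, at a log2 ratio of 1.50 (SE 1.04). LOX2, which makes most of the jasmonate of wounded leaves, was at 0.115 FPKM in ethylene and 0.234 in air and had too few reads to be tested. LOX6 thus held most of the summed level of the 4 member lipoxygenase genes, 28.9 FPKM in ethylene and 34.8 in air.

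AOS, the cytochrome P450 that forms the unstable allene oxide, was at 21.2 FPKM in ethylene and 25.6 in air. AOC4 led the allene oxide cyclases, which close the ring of the hormone precursor, at 75.5 FPKM in ethylene and 67.3 in air. AOC3 was at 19.8 FPKM in ethylene and 15.5 in air, and the shared entry of AOC1 and AOC2 at 7.71 FPKM in ethylene and 10.4 in air. None of these 3 entries was called, and the 95% interval of each log2 ratio included 0. AOC1, AOC2 and AOC3 lie side by side on chromosome 3 (TAIR10.1, 9403779 to 9411090), and their coding sequences are 80.8% to 89.9% identical, with exact shared runs of 47 to 73 bases. How the authors' counting divided reads between them is not given in the sources used here. OPR3, the peroxisomal reductase, was at 23.7 FPKM in ethylene and 22.7 in air, with a log2 ratio of 0.06 and a 95% interval of -0.45 to 0.57.

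Neither of the 2 member enzymes that oxidise jasmonoyl-isoleucine was called, and both had higher values in ethylene; their relative CYP94B1, outside the 36, was called lower. CYP94B3, which adds a hydroxyl group, was at 14.9 FPKM in ethylene and 10.8 in air (q = 0.120 in the authors' deposited table, Cuffdiff). CYP94C1, which carries the oxidation on to the carboxylate, was at 2.54 FPKM in ethylene and 2.12 in air.

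Receptor and adaptor were also above their air values without a call. COI1 was at 22.9 FPKM in ethylene and 19.1 in air, with a log2 ratio of 0.27 and a 95% interval of -0.36 to 0.89. NINJA, which links JAZ proteins to the TOPLESS co-repressors, was at 47.8 FPKM in ethylene and 37.6 in air (q = 0.165 in the authors' deposited table, Cuffdiff). The intervals leave room for changes the size of those called elsewhere, so no lack of change is shown.

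**Figure D2:**
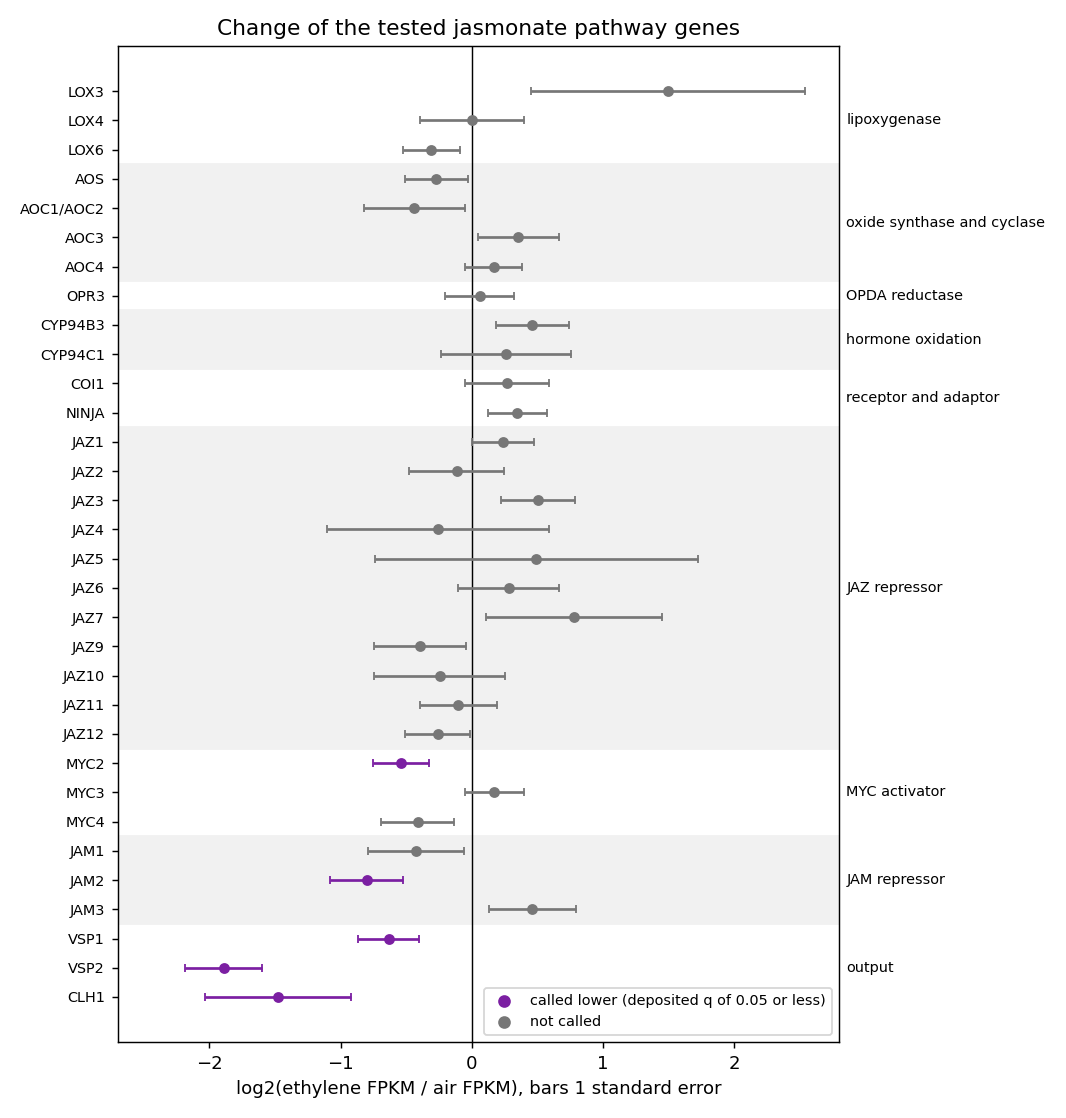
Log2 ratio of ethylene FPKM to air FPKM for the 32 tested member entries, with bars of 1 standard error taken from the deposited statistic. The 5 called entries, VSP2 at -1.89, CLH1 at -1.48, JAM2 at -0.80, VSP1 at -0.63 and MYC2 at -0.54, lie at the bottom of the plot among factors and outputs; no JAZ or synthesis gene is called.

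The JAZ repressors bind MYC factors until the hormone marks them for destruction, and their genes are themselves MYC targets. None of the 12 was called, and 11 were tested, 5 with a higher and 6 with a lower value in ethylene. Summed over the family, JAZ transcripts came to 199 FPKM in ethylene and 203 FPKM in air. JAZ12 was the most abundant, at 68.8 FPKM in ethylene and 82.3 in air, and its log2 ratio of -0.26 had a 95% interval of -0.75 to 0.23. JAZ1 followed, at 45.4 FPKM in ethylene and 38.5 in air. In these dark-grown seedlings the JAZ pool was thus led by 2 genes, which held 57.5% of it in ethylene and 59.6% in air.

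JAZ2 was at 21.3 FPKM in ethylene and 23.1 in air, and JAZ11 at 18.8 FPKM in ethylene and 20.2 in air. JAZ3 was at 17.4 FPKM in ethylene and 12.3 in air, a log2 ratio of 0.50 with a standard error of 0.28 (q = 0.0887 in the authors' deposited table, Cuffdiff), the smallest q of the family. JAZ9 was at 7.64 FPKM in ethylene and 10.1 in air, and JAZ6 at 7.39 FPKM in ethylene and 6.09 in air. The order of the 12 levels was the same in both conditions except that JAZ7 and JAZ10 changed places.

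The remaining JAZ genes were low. JAZ7, one of the strongly wound-induced members, was at 5.90 FPKM in ethylene and 3.44 in air, with a standard error of 0.67 around a log2 ratio of 0.78. JAZ10, whose splice forms resist degradation, was at 4.22 FPKM in ethylene and 5.01 in air. JAZ4 and JAZ5 were at 0.964 and 0.655 FPKM in ethylene, and at 1.15 and 0.465 FPKM in air. JAZ8, which lacks the usual degradation signal, was listed at 0 in both conditions and was not tested.

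The MYC factors are the basic helix-loop-helix activators of the pathway, and of the 3 genes MYC2 was called lower. It was at 47.1 FPKM in ethylene and 68.6 in air, 1.46-fold lower, at a log2 ratio of -0.54 (SE 0.21, with q = 0.00548 in the authors' deposited table, Cuffdiff). MYC2 (AT1G32640, TAIR10.1 chromosome 1, 11798119 to 11801407, minus strand, 1 exon) overlaps AT1G32630 on the other strand, which was at 6.92 FPKM in ethylene and 6.53 in air. MYC3 was at 41.8 FPKM in ethylene and 37.1 in air and was not called. MYC4 was at 9.52 FPKM in ethylene and 12.7 in air, at a log2 ratio of -0.41 (SE 0.28), and was not called either (q = 0.173 in the authors' deposited table, Cuffdiff). MYC2 therefore made up 47.9% of the summed MYC level in ethylene and 58.0% in air, and MYC3 42.4% in ethylene and 31.3% in air. Whether the change of MYC2 differs from that of MYC3 or MYC4 was not tested.

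The summed JAZ level was 2.02 times the summed MYC level in ethylene and 1.71 times in air. These ratios are of FPKM values, which are per length of transcript, and carry no error because each condition has 1 pooled value.

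The JAM factors resemble MYC2 but repress its targets by competing for the same sites. JAM2 (AT1G01260, chromosome 1, 108946 to 111699, plus strand, 2 exons) fell to 6.92 FPKM in ethylene, against 12.1 in air, 1.74-fold lower at a log2 ratio of -0.80 (SE 0.28, with q = 0.00164 in the authors' deposited table, Cuffdiff). JAM1 was at 3.64 FPKM in ethylene and 4.89 in air. JAM3 was at 23.2 FPKM in ethylene and 16.9 in air and was not called (q = 0.231 in the authors' deposited table, Cuffdiff). The sum of the 3 genes was 33.7 FPKM in ethylene and 33.8 in air, with JAM3 making up 68.7% of it in ethylene and 49.8% in air. JAM3 shares its span in the table with AT4G16440 on the other strand, at 9.51 FPKM in ethylene and 8.51 in air, and the strand setting of the counting is not stated. COI1 and JAZ12 likewise share a span with a gene on the other strand, AT2G39930 at 13.7 FPKM in ethylene and 11.6 in air, and AT5G20910 at 18.8 FPKM in ethylene and 18.5 in air.

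**Figure D3:**
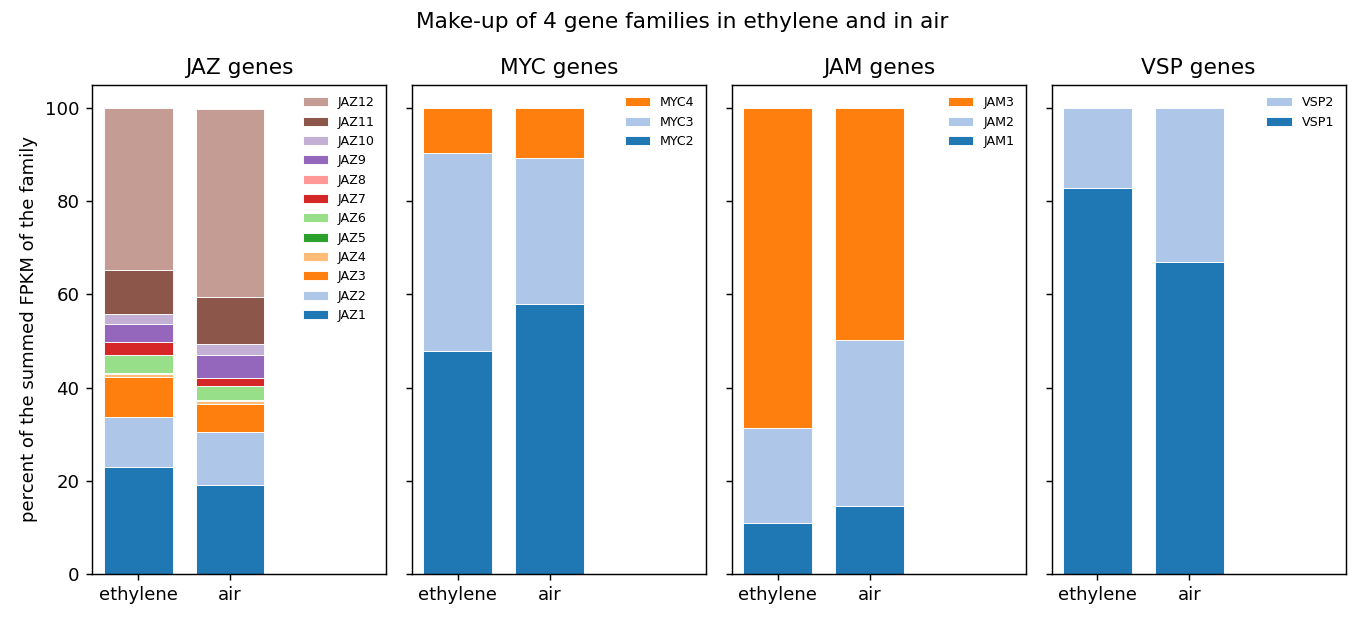
Share of each gene in the summed FPKM of its family, in ethylene (left bar) and air (right bar), for the 12 JAZ, 3 MYC, 3 JAM and 2 VSP genes. The JAZ bars are alike, with JAZ12 at 34.7% in ethylene and 40.6% in air; MYC2, JAM2 and VSP2 take a smaller share in ethylene than in air.

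All 3 tested genes of the 4 listed outputs were called lower. VSP1 and VSP2 encode acid phosphatases stored in vacuoles and are standard markers of the MYC branch in Arabidopsis. VSP2 (AT5G24770, chromosome 5, 8500468 to 8502224, minus strand, 3 exons) was at 7.38 FPKM in ethylene and 27.4 in air, 3.71-fold lower, at a log2 ratio of -1.89 (SE 0.30, with q = 0.000878 in the authors' deposited table, Cuffdiff). By log2 change it was number 95 of 1352 lower entries. VSP1 (AT5G24780, chromosome 5, 8507590 to 8509201, minus strand, 3 exons) was at 35.6 FPKM in ethylene and 55.3 in air, 1.55-fold lower, at a log2 ratio of -0.63 (SE 0.23, with q = 0.00302 in the authors' deposited table, Cuffdiff). VSP1 was thus 4.83 times as abundant as VSP2 in ethylene and 2.02 times in air. The difference between their falls was not tested.

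VSP1 and VSP2 are a tandem pair, 5365 bases apart, and 87.8% identical over the aligned coding sequence, with a longest exact shared run of 54 bases. Reads inside such runs cannot be assigned by sequence. The first 120 aligned columns of the coding sequences (RefSeq, TAIR10.1) are shown for how closely the pair match. Capitals mark the 19 columns that differ, 4 of them substitutions and 15 of them bases that VSP2 lacks.
VSP2: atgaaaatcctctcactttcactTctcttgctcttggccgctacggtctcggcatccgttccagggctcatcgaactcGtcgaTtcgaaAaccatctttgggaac
VSP1: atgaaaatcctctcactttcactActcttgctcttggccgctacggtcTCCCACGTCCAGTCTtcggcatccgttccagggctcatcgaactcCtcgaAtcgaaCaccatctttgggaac

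CLH1, a chlorophyllase that jasmonate and wounding induce, was at 1.67 FPKM in ethylene and 4.67 in air, 2.79-fold lower, at a log2 ratio of -1.48 (SE 0.56, with q = 0.0138 in the authors' deposited table, Cuffdiff). It lies on chromosome 1 (6803486 to 6805092, minus strand, 2 exons). TAT3, a tyrosine aminotransferase, was listed at 0 in ethylene and at 0.0116 FPKM in air and was not tested. The 4 outputs summed to 44.7 FPKM in ethylene and 87.3 FPKM in air.

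A phloem marker moved with the member outputs. SUC2, the sucrose carrier of companion cells, was called lower, at 63.1 FPKM in ethylene and 93.4 in air (q = 0.00429 in the authors' deposited table, Cuffdiff). The other listed phloem markers were not called, SEOR1 being at 21.3 FPKM in ethylene and 22.0 in air and APL at 7.42 FPKM in ethylene and 9.45 in air. The 3 phloem markers summed to 91.8 FPKM in ethylene and 125 in air, with most of the drop in SUC2. The 3 xylem markers, none called, summed to 294 FPKM in ethylene and 247 in air. XCP1 was at 103 FPKM in ethylene and 86.8 in air, and XCP2 at 188 in ethylene and 157 in air. VND7 went the other way, at 2.4 FPKM in ethylene and 2.8 in air. The 3 root hair markers, all called higher, summed to 52.4 FPKM in ethylene and 21.7 in air. Over all tested entries that name a gene 4.79% were called higher, and the markers were listed with earlier results known. Under the normal curve SUC2 and the root hair gene RSL4 were no longer called, with Benjamini-Hochberg adjusted p of 0.0983 and 0.267 from Cuffdiff's statistic. The part of these cell types in the falls of the jasmonate genes was not tested.

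MYC factors bind the G-box and close variants of it, and ethylene response factors of the ERF class bind the GCC box. In the 250 bases before the RefSeq gene start, CACGTG was found at 5 of the 36 members, against 6.49% of 27443 protein-coding genes. CACATG, searched on both strands, was found at 8 members, against 11.1% of all genes, and either motif at 13 members, against 16.6%. No match of one motif can overlap a match of the other. GCCGCC, searched on both strands, was found at 0 members, against 1.87% of all genes. Of the 5 genes that fell, CLH1 alone had a CACGTG or CACATG in this window, a CACATG from 55 to 50 bases before its start. The windows of VSP2 and VSP1, which fell together, are printed beside that of CLH1 and of JAZ3, which has a pair of CACGTG motifs and was not called. Capitals mark the motifs, and each window reads 5′ to 3′ on the gene's strand (RefSeq, TAIR10.1). The positions are chr5:8502225-8502474 for VSP2, chr5:8509202-8509451 for VSP1 and chr1:6805093-6805342 for CLH1, all on the minus strand, and chr3:6119457-6119706 for JAZ3 on the plus strand.
VSP2: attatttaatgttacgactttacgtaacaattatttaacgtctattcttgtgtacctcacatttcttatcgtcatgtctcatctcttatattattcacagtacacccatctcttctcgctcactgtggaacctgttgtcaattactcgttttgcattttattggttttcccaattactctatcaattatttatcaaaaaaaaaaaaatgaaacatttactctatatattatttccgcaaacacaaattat
VSP1: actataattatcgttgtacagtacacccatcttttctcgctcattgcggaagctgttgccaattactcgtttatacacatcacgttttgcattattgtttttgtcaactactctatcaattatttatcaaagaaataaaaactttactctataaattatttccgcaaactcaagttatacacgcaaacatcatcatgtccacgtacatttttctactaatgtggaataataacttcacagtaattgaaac
CLH1: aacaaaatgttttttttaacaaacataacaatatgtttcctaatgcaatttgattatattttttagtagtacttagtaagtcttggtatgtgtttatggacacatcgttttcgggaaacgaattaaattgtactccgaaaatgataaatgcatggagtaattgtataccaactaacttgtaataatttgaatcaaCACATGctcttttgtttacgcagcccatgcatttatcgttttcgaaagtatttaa
JAZ3: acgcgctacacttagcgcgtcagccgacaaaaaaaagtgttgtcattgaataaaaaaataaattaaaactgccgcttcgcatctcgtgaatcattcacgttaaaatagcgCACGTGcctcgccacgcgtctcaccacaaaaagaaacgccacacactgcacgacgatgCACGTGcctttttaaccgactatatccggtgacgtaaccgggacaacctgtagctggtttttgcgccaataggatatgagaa
A match is a string of letters and not a site shown to be bound, and a window without one says nothing on sites farther away.

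The surrounding pathway was described with 64 further genes, in 64 entries, of which 47 were tested. Of these 6 (12.8%) were called higher and 5 (10.6%) lower, against the background of 4.79% higher and 6.50% lower. The list was drawn up with earlier results of these data known, so these shares describe it and show no enrichment of the pathway. Fatty acid desaturases and other oxylipin enzymes gave no call among 8 tested. FAD3, which makes the alpha-linolenic acid of the endoplasmic reticulum, was at 123 FPKM in ethylene and 97.3 in air. In Cuffdiff's test at an unadjusted p under 0.05 it was the 1 gene of this group that was higher.

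Of 10 genes for the peroxisomal steps, 1 rose. ACX1, the acyl-CoA oxidase of jasmonate and fatty acid beta-oxidation, was at 209 FPKM in ethylene and 116 in air, 1.81-fold higher, at a log2 ratio of 0.86 (SE 0.21, with q = 0.000878 in the authors' deposited table, Cuffdiff). Its call held under the normal curve, with a Benjamini-Hochberg adjusted p of 0.00102 from Cuffdiff's statistic. The other abundant enzymes were not called. The thiolase KAT2 was at 316 FPKM in ethylene and 291 in air, ACX4 at 178 in ethylene and 163 in air, ACX2 at 111 in ethylene and 96.8 in air, and MFP2 at 104 in ethylene and 103 in air.

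Genes that conjugate, inactivate or move the hormone held 4 of the 5 lower calls among the further genes. Of 10 tested, 4 (40%) were called lower and 1 (10%) higher. The background over all tested entries that name a gene was 6.50% lower and 4.79% higher. The list was drawn up with earlier results known, so these shares are a description only. ILL6, an amidohydrolase that cleaves jasmonoyl-isoleucine, was at 16.4 FPKM in ethylene and 30.2 in air, 1.84-fold lower (q = 0.000878 in the authors' deposited table, Cuffdiff). CYP94B1, a close relative of CYP94B3, was at 23.0 FPKM in ethylene and 36.6 in air, 1.59-fold lower (q = 0.00233 in the authors' deposited table, Cuffdiff). The jasmonate transporter ABCG16 was at 2.92 FPKM in ethylene and 7.06 in air, 2.42-fold lower. GTR1, a carrier of glucosinolates that can also move jasmonoyl-isoleucine, was at 15.2 FPKM in ethylene and 25.3 in air, 1.67-fold lower.

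ST2A moved the other way. This sulfotransferase acts on hydroxyjasmonate, and its gene was at 352 FPKM in ethylene and 235 in air, 1.50-fold higher (q = 0.000878 in the authors' deposited table, Cuffdiff). It was more abundant than any of the 36 members. JAR1, which joins the hormone to isoleucine, was at 51.0 FPKM in ethylene and 56.2 in air and was not called. Under the normal curve the calls of CYP94B1, GTR1 and ST2A were lost, with adjusted p of 0.0684, 0.0969 and 0.0692, while ILL6 and ABCG16 kept theirs at 0.00599 and 0.0143.

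**Figure D4:**
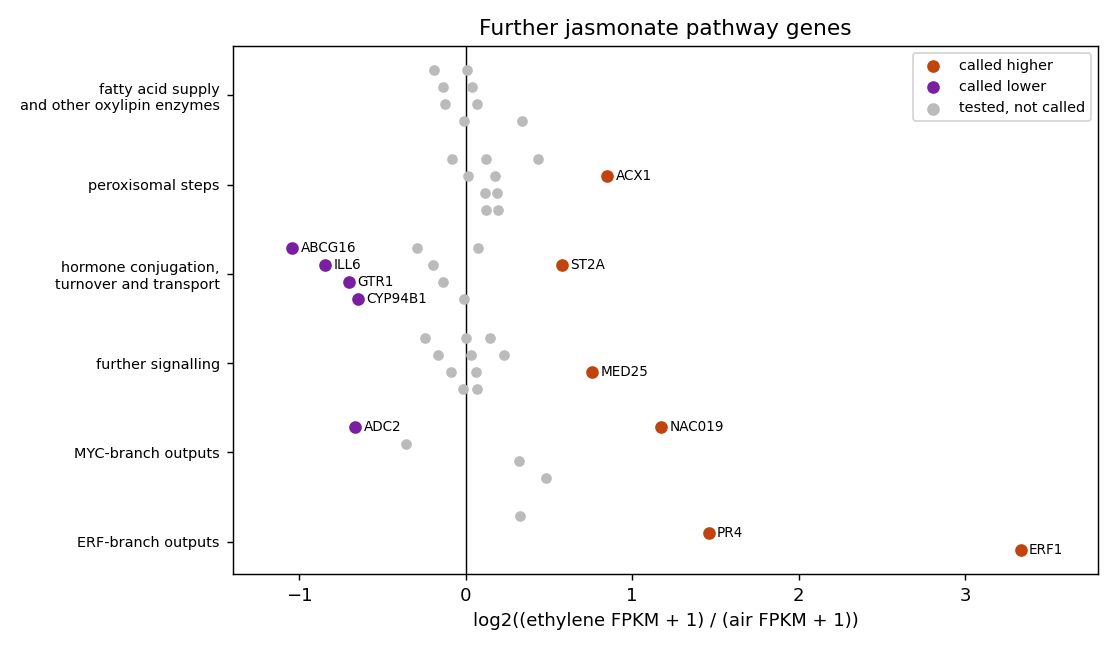
Log2 change, with 1 FPKM added to both values, of the 47 tested entries of the further jasmonate genes, by role; called genes are named. ABCG16, ILL6, GTR1 and CYP94B1 lie together below 0 among the genes of conjugation, turnover and transport, and ERF1 and PR4 lie farthest above 0.

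Among the further signalling genes 1 of 11 tested rose. MED25, a subunit of the Mediator complex that MYC2 contacts, was at 17.6 FPKM in ethylene and 10.0 in air, 1.76-fold higher (q = 0.000878 in the authors' deposited table, Cuffdiff). TPL, the TOPLESS co-repressor, was at 62.6 FPKM in both conditions. The ubiquitin ligase subunits that work with COI1 were abundant, SKP1 at 423 FPKM in ethylene and 360 in air, and ASK2 at 102 in ethylene and 103 in air. CUL1 was at 117 FPKM in ethylene and 111 in air, and its test failed in the authors' run.

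The further outputs were listed by branch. Of 5 tested outputs of the MYC branch, 1 rose and 1 fell. ADC2, the arginine decarboxylase of polyamine synthesis, was at 556 FPKM in ethylene and 881 in air, 1.59-fold lower (q = 0.000878 in the authors' deposited table, Cuffdiff). NAC019, a transcription factor downstream of MYC2, was at 4.25 FPKM in ethylene and 1.32 in air, 3.21-fold higher (q = 0.0152 in the authors' deposited table, Cuffdiff). The other 3 tested genes were not called. The lectin gene JR1 was at 432 FPKM in ethylene and 553 in air, and the NAC factor genes NAC055 at 14.2 FPKM in ethylene and 9.93 in air and RD26 at 50.7 FPKM in ethylene and 40.4 in air. Under the normal curve ADC2 was still called, with an adjusted p of 0.0417, and NAC019 was not, at 0.122.

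Of the 8 outputs of the branch that ethylene and jasmonate share through ERF factors, 3 were tested and 2 rose. The background was 4.79% called higher, and this list too was drawn up with earlier results known. ERF1 was at 9.07 FPKM in ethylene and listed at 0 in air, so it has no numeric statistic to read against the normal curve. PR4, a hevein-like protein, was at 406 FPKM in ethylene and 147 in air, 2.76-fold higher (q = 0.000878 in the authors' deposited table, Cuffdiff). The chitinase gene HCHIB was at 114 FPKM in ethylene and 90.4 in air and was not called. ORA59 was at 0.321 FPKM in ethylene and listed at 0 in air, and 3 PDF1.2 defensin genes were listed at 0 in both conditions. Whether the outputs of the branches differ in their response was not tested.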

How the data were processed

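RNA was sequenced from 4 libraries, 2 in each condition. Per the submitters' processing notes, the authors used TopHat2 2.0.9 and Cuffdiff 2.2.1 with TAIR10; parameters, annotation and strand setting are not stated in any source used. The deposited FPKM values are the authors', 1 pooled value per condition. The p-value and q-value columns are the authors' Cuffdiff test, and the deposited test statistic is a score. The deposited log2 fold column had cells turned into text and was not used, so folds were recomputed. Recomputing Benjamini-Hochberg values over the 21076 tested entries gave the deposited q to within 5.25e-07. The smallest deposited p is 5e-05, shared by 1200 entries. A search for whole-fragment steps gave at best 24.7% whole values in ethylene and 24.3% in air, within a tolerance of 0.1. Random values give 20% at a single fixed step, whereas the best of many steps was kept here. Lengths were the genomic spans of the entries, introns included, so the search could not decide and depth was not recovered.

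For each locus the entry naming it alone was preferred, then the higher mean. The log2 change used a pseudocount of 1 FPKM. Alternatives were pseudocounts of 0.1 and 5 FPKM, a filter at 1 FPKM, adjustment over gene-naming entries, a standard normal curve for the statistic, centring, and other choices of entry. No library values were used here, so no test across libraries was run. Coordinates and sequences come from RefSeq TAIR10.1, in which 31742 of 31743 single-gene nuclear entries overlapped their gene; proteins were not compared. Windows cover 250 bases before each gene start. All 36 members are named, and of the further genes those called or above 100 FPKM; LOX1, NAC055, RD26, JAR1, TPL, ORA59 and the PDF1.2 genes were added after their values were seen. Members and lists were chosen with earlier results of these data known. Python 3.11.15, pandas 2.3.3, scipy 1.17.1 and Biopython 1.88 were used. The adjustment was tested on simulated data.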

Additional observations from a re-analysis of the deposited data

How the results depend on the processing

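The count of members called lower was 5, and 5 under adjustment over gene-naming entries, over entries at 1 FPKM or more, or with a tested entry preferred; it was 1 when the statistic was read against a standard normal curve. The count called higher was 0 in each of these. For the further jasmonate genes that reading gave 3 higher and 3 lower, where 6 and 5 were called; of the 3 higher calls not made, that of ERF1 is missing because its statistic is not a number. The median log2 change of the members was -0.10 with a pseudocount of 0.1, -0.0034 with 5, -0.10 over members at 1 FPKM or more and -0.026 when centred on all entries at 1 FPKM or more. Each member locus is named in only 1 entry. Summing the entries of a locus or preferring a tested entry therefore could not change a member result. Reading the statistic against a standard normal curve ended 4 of 5 single-gene calls among the members. The cause of that difference was not tested. A pseudocount added to both values cannot reverse a direction, so the pseudocounts bear only on the size of a change. No paired analysis was possible because the table has no column per library, and leaving out a replicate was not run for that reason. Depth is unknown, which limits what the low genes LOX2, LOX3, JAZ4, JAZ5, JAZ8 and TAT3 can show. CLH1, which was called lower, was also low, at 1.67 FPKM in ethylene and 4.67 in air. Its log2 change was -1.43 with a pseudocount of 0.1, -1.08 with 1 and -0.53 with 5.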
